A study of Mus musculus with 12 samples.

Results

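The kidney cortex of mice given lipopolysaccharide (LPS) after an ethanol diet was compared with that of mice given LPS after pair-feeding, across 10961 protein-coding genes. These genes are annotated as protein coding in GENCODE M21 and reached 1 FPKM in 3 or more of the 6 LPS libraries, out of 47719 genes in the deposited table and 14109 that were tested. FPKM is the number of fragments per kilobase of transcript, scaled to the mapped fragments of the library. The deposited values are labelled as normalized, so a scaling between libraries may already be in them. EtOH_LPS, 3 libraries, is cortex of male C57BL6/J mice, given as 8 weeks old, that were fed a liquid Lieber-DeCarli diet with ethanol, which rose in steps to 6%, over 6 weeks. PF_LPS, 3 libraries, is cortex of mice pair-fed the same calories with maltose-dextrin in place of ethanol. Both received LPS of Escherichia coli at 10 mg/kg into the peritoneum, 4 hours before the tissue was taken. EtOH and PF, 3 libraries each, received the same diets and saline, and serve as the diet comparison without LPS. The labels name the source as whole kidney and its region as cortex. They do not say that the 3 replicates of a group were separate mice, so p-values measure only the spread between these libraries.

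LPS, a component of the outer membrane of Gram-negative bacteria, is sensed by TLR4 on myeloid cells, endothelium and tubule epithelium. One branch of TLR4 signalling runs through MyD88 to NF-kB and AP-1 and turns on chemokines, adhesion molecules and early transcription factors. The other runs through TRIF to interferon beta, whose receptor drives a second wave of interferon-stimulated genes. In endotoxemia the tubule also loses transporter and metabolic transcripts. Ethanol is oxidised in the kidney by alcohol dehydrogenase and by the cytochrome P450 Cyp2e1, and the male mouse proximal tubule carries a large androgen-dependent programme that includes P450 enzymes.

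Among the 10961 genes, 3 were higher and 7 were lower in EtOH_LPS than in PF_LPS at an adjusted p under 0.05 (limma on log2(FPKM + 1), Benjamini-Hochberg over 14109 genes), which is 0.0274% and 0.0639% of them, against 0.0354% and 0.0638% of all genes tested. At an unadjusted p under 0.05, 633 (5.78%) were higher and 636 (5.8%) lower. The 3 values of each group did not overlap for 631 genes with EtOH_LPS above (5.76%) and 637 with EtOH_LPS below (5.81%). The median log2 fold change over all 10961 was 0.009. Fold changes here are EtOH_LPS over PF_LPS on the log2(FPKM + 1) scale, where genes of low FPKM change less than their ratio. Each error beside one is the standard error of the fit, which took 1 spread per gene from all 12 libraries, saline included. The mean correlation of a library with the others of its group was 0.945 to 0.969 under LPS and 0.979 to 0.987 under saline. Errors and p-values under LPS can therefore understate the spread of the LPS libraries.

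Summed FPKM lay between 1278219 and 1437382 in EtOH_LPS and between 1292776 and 1935824 in PF_LPS. Scaling all libraries to an equal total moved the median log2 fold change to 0.22, against 0.024 with median-ratio factors and 0.013 with quantile normalization. With equal totals none of the 10961 genes passed the threshold, and the median of each gene list described below was higher. Fragment totals are not in the table, and the steps between low values put PF_LPS library 2 at 0.66 of the depth of PF_LPS library 1, against 0.895 to 1.028 for the other 4 LPS libraries. Relative to their own group means, GC-rich genes were low in EtOH_LPS library 1 (a slope of -0.32 log2 units per 10% GC) and in PF_LPS library 2 (-0.41), and high in the other 4 (0.14 to 0.25). Across the 10961 genes the log2 fold change had a Spearman correlation of 0.37 with transcript GC content under LPS and of -0.06 under saline. Genes are not independent replicates, and the part of GC content in the results below was not tested.

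The genes that fell in EtOH_LPS included Parp11, Trim14, Cyp2a5, Hsd11b1, Slc6a15 and Rnf180, and the 3 that rose were Cxcl2, Rnd3 and Limch1. The groups of all 10 did not overlap, and their adjusted p-values lay between 0.0442 and 0.0495, close under the threshold. Each kept its direction in every alternative in which it was fitted. No alternative kept all 10 calls, and none of the 10 passed with EtOH_LPS library 2, PF_LPS library 2 or PF_LPS library 3 left out. None passed either with equal totals, with array weights, with the replicate number as a block, without a filter on low values or in the 6 LPS libraries alone. A correction for GC content gave 27 genes, among them 9 of the 10.

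**Figure D1:**
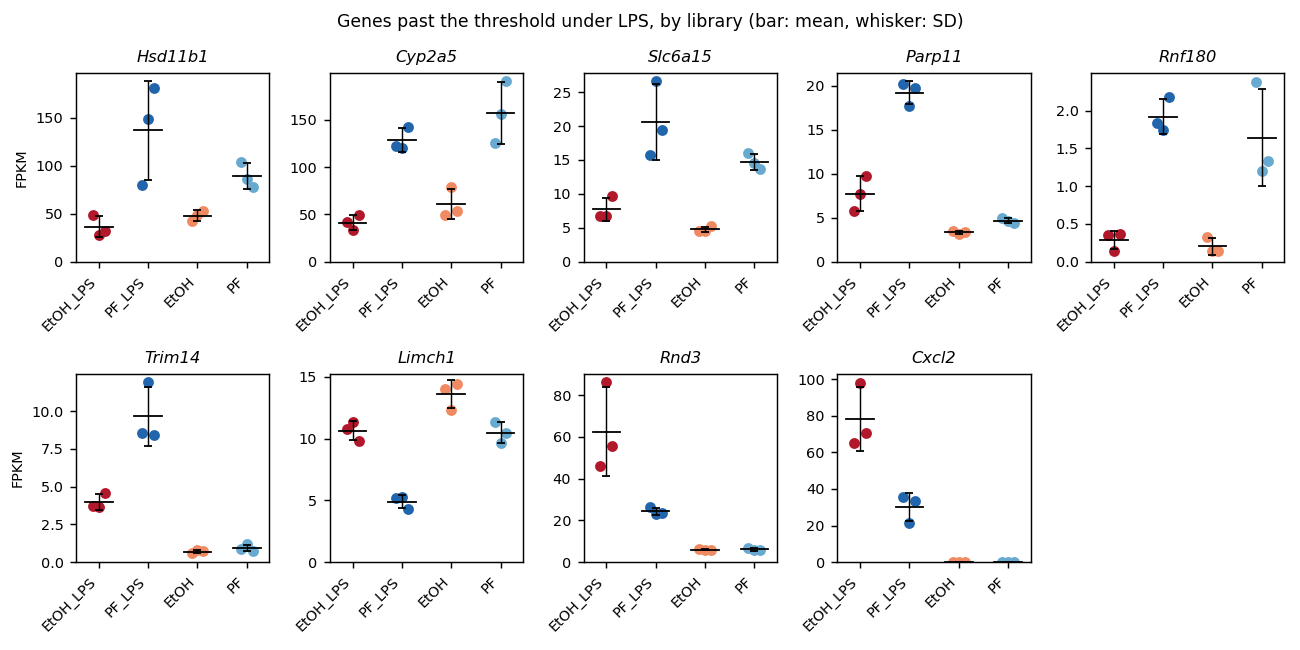
FPKM by library (points) for 9 genes past the threshold, in EtOH_LPS, PF_LPS, EtOH and PF from left to right, with the mean (bar) and SD (whisker) of 3 libraries. In each panel the 3 EtOH_LPS points lie on one side of the 3 PF_LPS points, below them for 6 genes and above them for Limch1, Rnd3 and Cxcl2.

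Promoter sequence is shown for an interferon-linked gene and the chemokine among these 10, and for an interferon-inducible GTPase described further on, because they hold short motifs of the 2 TLR4 branches. The windows are the 250 bases before the RefSeq transcription start (GRCm38.p6, the assembly of mm10), 5′ to 3′, with the motif in capitals. The interferon-stimulated response element was searched as GAAANNGAA and the NF-kB site as GGGANNTTC, on both strands. The interferon letters occur in 7.13% of 32851 RefSeq promoter windows of that length, and the NF-kB letters in 3.23%.
Parp11, chr6:127446590-127446839, plus strand: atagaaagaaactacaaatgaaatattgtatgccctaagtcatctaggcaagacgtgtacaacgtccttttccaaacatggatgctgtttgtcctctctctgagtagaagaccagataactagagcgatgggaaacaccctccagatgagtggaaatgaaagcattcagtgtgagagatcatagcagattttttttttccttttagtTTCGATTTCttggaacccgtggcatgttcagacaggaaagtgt
Gbp7, chr3:142530086-142530335, plus strand: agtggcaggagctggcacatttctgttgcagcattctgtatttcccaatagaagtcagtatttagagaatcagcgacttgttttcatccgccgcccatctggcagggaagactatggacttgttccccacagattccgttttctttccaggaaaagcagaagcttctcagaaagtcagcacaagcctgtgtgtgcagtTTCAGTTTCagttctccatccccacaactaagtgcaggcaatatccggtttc
Cxcl2, chr5:90903649-90903898, plus strand: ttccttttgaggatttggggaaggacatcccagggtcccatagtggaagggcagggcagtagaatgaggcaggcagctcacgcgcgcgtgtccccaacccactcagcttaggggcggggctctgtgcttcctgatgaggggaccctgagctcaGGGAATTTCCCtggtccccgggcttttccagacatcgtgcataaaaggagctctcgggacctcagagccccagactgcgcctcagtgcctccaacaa
In Parp11 the motif lies 43 to 35 bases before the start, in Gbp7 52 to 44, and in Cxcl2, where matches on both strands overlap, 97 to 87. Parp11 has 2 promoters in the RefSeq table, and the other holds neither motif. Of the 7 called genes with a window in that table, Parp11 alone holds the interferon letters and Cxcl2 alone the NF-kB letters. In Parp11 and Gbp7 the match is on the minus strand, so it is printed as its reverse complement. A match describes the letters of the window and is not evidence of binding.

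Parp11, a mono-ADP-ribosyltransferase (ENSMUSG00000037997, chromosome 6, 127446840 to 127494261, plus strand), had 5.76, 7.76 and 9.72 FPKM in EtOH_LPS, against 20.2, 17.7 and 19.8 FPKM in PF_LPS. Its log2 fold change was -1.23 ± 0.17 (adjusted p = 0.0442). Under saline, levels were low in both diets, with 3.47, 3.14 and 3.43 FPKM in EtOH, against 4.98, 4.64 and 4.38 FPKM in PF. EtOH lay below PF without overlap there too (log2 fold change -0.38 ± 0.17). LPS libraries of both diets stood above the saline libraries, and those of EtOH_LPS less far above. The difference between the diet effects under LPS and under saline, -0.85 ± 0.25, did not pass (limma adjusted p = 0.86).

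Trim14, an adaptor of antiviral RNA sensing at mitochondria (ENSMUSG00000039853, chromosome 4, 46493781 to 46536141, minus strand), had 3.73, 3.62 and 4.59 FPKM in EtOH_LPS, against 8.59, 11.9 and 8.45 FPKM in PF_LPS. The log2 fold change was -1.09 ± 0.17 (adjusted p = 0.0488). The gene overlaps Nans on the opposite strand (strand setting not given in the sources used here), and part of its fragments could belong to Nans.

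Cyp2a5, a cytochrome P450 that hydroxylates coumarin (ENSMUSG00000005547, chromosome 7, 26835305 to 26843548, plus strand), had 41.7, 33.3 and 49.4 FPKM in EtOH_LPS, against 122, 121 and 143 FPKM in PF_LPS. The log2 fold change was -1.62 ± 0.23 (adjusted p = 0.0442). Under saline it stood at 49.9, 78.9 and 53.5 FPKM in EtOH, against 126, 156 and 191 FPKM in PF, a log2 fold change of -1.37 ± 0.23 that did not pass (adjusted p = 0.172). Cyp2a4 is a near-identical copy, so the split of fragments between both is uncertain. Hsd11b1, the enzyme that regenerates active glucocorticoid inside cells (ENSMUSG00000016194, chromosome 1, 193221634 to 193264075, minus strand), had 49.3, 28.4 and 32.3 FPKM in EtOH_LPS, against 80.5, 149 and 182 FPKM in PF_LPS. PF_LPS library 1 lay nearest to the EtOH_LPS libraries. The fit gave a log2 fold change of -1.83 ± 0.29 (adjusted p = 0.0495). Under saline it had 42.3, 48.6 and 53.5 FPKM in EtOH, against 104, 86.3 and 77.8 FPKM in PF (log2 fold change -0.88 ± 0.29, adjusted p = 1). Hsd11b1 overlaps Lamb3 on the opposite strand.

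Slc6a15, a sodium-coupled carrier of neutral amino acids (ENSMUSG00000019894, chromosome 10, 103367783 to 103419377, plus strand), had 6.81, 6.73 and 9.66 FPKM in EtOH_LPS, against 15.7, 26.7 and 19.4 FPKM in PF_LPS (log2 fold change -1.29 ± 0.20, adjusted p = 0.0488). It was the 1 gene of the 10961 (0.00912%) that also passed between the diets under saline, with 4.5, 4.54 and 5.24 FPKM in EtOH, against 16, 14.5 and 13.7 FPKM in PF (log2 fold change -1.45 ± 0.20, adjusted p = 0.0478). Rnf180, a membrane-bound RING ubiquitin ligase (ENSMUSG00000021720, chromosome 13, 105130001 to 105294815, minus strand), had 0.349, 0.148 and 0.373 FPKM in EtOH_LPS, against 1.84, 1.74 and 2.18 FPKM in PF_LPS. Its log2 fold change was -1.18 ± 0.19 (adjusted p = 0.0488). Under saline it had 0.334, 0.144 and 0.137 FPKM in EtOH, against 2.38, 1.2 and 1.34 FPKM in PF, so it was below 0.4 FPKM in all 6 ethanol libraries and above 1 FPKM in all 6 pair-fed libraries. Among the LPS libraries Rnf180 reached 1 FPKM in PF_LPS alone, as did 34 of the 10961 genes, against 13 that did so in EtOH_LPS alone, and such genes passed the filter only through the group where they were high.

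Cxcl2, a chemokine that draws neutrophils through the receptor Cxcr2 (ENSMUSG00000058427, chromosome 5, 90903871 to 90905938, plus strand), had 65.3, 98.2 and 70.8 FPKM in EtOH_LPS, against 35.8, 21.5 and 33.5 FPKM in PF_LPS. The lowest EtOH_LPS library lay above the highest PF_LPS library, and the log2 fold change was 1.35 ± 0.21 (adjusted p = 0.0488). Under saline it stayed under 0.3 FPKM in all 6 libraries. Rnd3, an atypical GTPase that reduces actin stress fibres (ENSMUSG00000017144, chromosome 2, 51130438 to 51149111, minus strand), had 45.9, 86.3 and 55.5 FPKM in EtOH_LPS, against 26.4, 23.1 and 23.7 FPKM in PF_LPS. EtOH_LPS library 2 was the highest, and the log2 fold change was 1.28 ± 0.20 (adjusted p = 0.0495). Saline libraries of both diets lay together, with 6.1, 6.03 and 5.87 FPKM in EtOH, against 6.78, 5.64 and 5.89 FPKM in PF.

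Limch1, an actin-associated protein that activates non-muscle myosin II (ENSMUSG00000037736, chromosome 5, 66745827 to 67057158, plus strand), had 10.8, 11.3 and 9.79 FPKM in EtOH_LPS, against 5.16, 5.24 and 4.31 FPKM in PF_LPS (log2 fold change 0.98 ± 0.14, adjusted p = 0.0447). Its saline values were 14.1, 12.3 and 14.5 FPKM in EtOH, against 11.4, 9.64 and 10.5 FPKM in PF. The 3 PF_LPS libraries were the lowest of the 12.

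**Figure D2:**
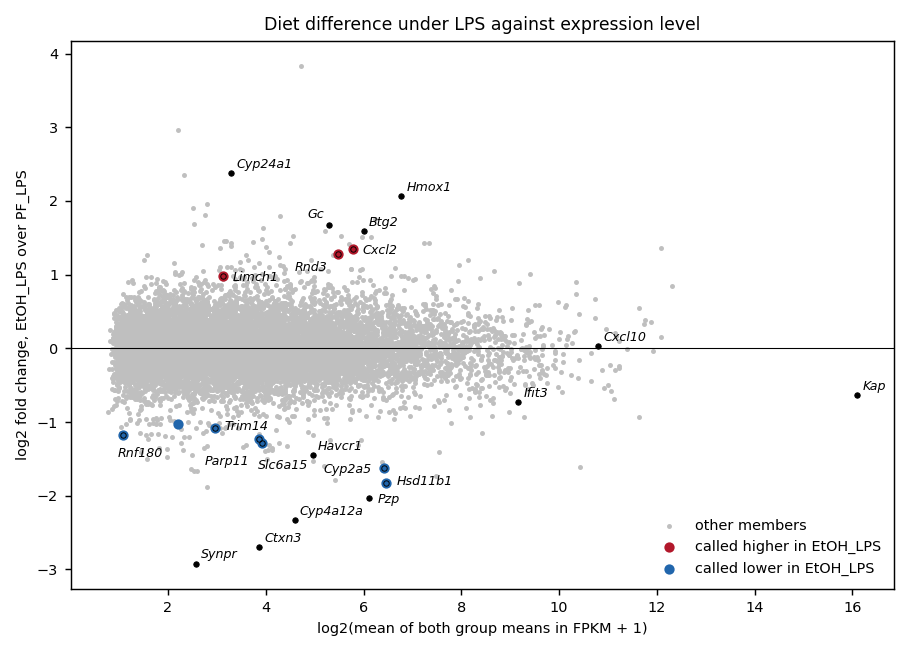
Log2 fold change of EtOH_LPS over PF_LPS (y axis) against the log2 of the average of both group means plus 1 FPKM (x axis), 1 point per gene for 10961 genes, with called genes in colour and other named genes in black. Most genes lie within 1 log2 unit of 0, and several genes with larger fold changes than the called ones, such as Synpr, Cyp24a1 and Hmox1, did not pass. The highest points are the predicted genes Gm11032 and Gm10337, of which Gm11032 is listed at 0 FPKM in PF_LPS libraries 1 and 2 and Gm10337 in all 3 PF_LPS libraries.

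Of 55 lists of genes chosen by function or cell type, 3 held a called gene, with Cxcl2 among the CXC chemokines, Cyp2a5 among the Cyp2 and Cyp4 enzymes and Hsd11b1 among the glucocorticoid-responsive genes. For the others limma called none, and those given below are described by its median log2 fold change, by how many of its genes had groups that did not overlap, and by the count at an unadjusted p under 0.05. Those numbers stand against a median of 0.009 and against 5.76% non-overlapping with EtOH_LPS above and 5.81% below over all 10961 genes.

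Interferon-stimulated genes leaned lower in EtOH_LPS as deposited, and their median log2 fold change was near 0 with equal totals. In the type I interferon list, 11 of 33 genes (33.3%) had groups that did not overlap with EtOH_LPS below, 0 had them with EtOH_LPS above, and 9 were lower at an unadjusted p under 0.05. The median was -0.26, and 0.003 with equal totals, where the median of all genes was 0.22. Correction for GC content left it at -0.26, with 11 genes again without overlap below, and leaving out EtOH_LPS library 1 and PF_LPS library 2 gave -0.22. Ifit3, an interferon-induced protein of the antiviral response, had 425, 454 and 409.8 FPKM in EtOH_LPS, against 712, 708 and 719 FPKM in PF_LPS, and the libraries within each group lay close together. It gave a log2 fold change of -0.73 ± 0.18 (adjusted p = 0.14), and the near-identical Ifit3b gave -0.78 ± 0.16 (adjusted p = 0.0959), with fragments that may be shared between both. Usp18, which removes the ubiquitin-like ISG15 and restrains interferon receptor signalling, averaged 84.6 ± 18 FPKM in EtOH_LPS and 132 ± 21.3 FPKM in PF_LPS (SD, n = 3 each; log2 fold change -0.64 ± 0.20, adjusted p = 0.249). Herc6, the mouse ligase that attaches ISG15, averaged 94.7 ± 7.56 FPKM in EtOH_LPS and 169 ± 51.5 FPKM in PF_LPS (SD, n = 3 each; log2 fold change -0.79 ± 0.23, adjusted p = 0.208). The promoter windows of Ifit3 and Ifit3b hold the interferon letters, and that of Herc6 does not.

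Guanylate-binding proteins and immunity-related GTPases, which attack the membranes of intracellular pathogens, leaned the same way. EtOH_LPS lay below PF_LPS without overlap in 6 of 15 (40%) and above it in 0, and the median was -0.42 (-0.16 with equal totals). Leaving out EtOH_LPS library 1 and PF_LPS library 2 gave -0.23, and the median between the diets under saline was -0.22. At an unadjusted p under 0.05, 5 were lower. Gbp7, whose promoter is shown above, had 138, 151 and 164 FPKM in EtOH_LPS, against 226, 356 and 245 FPKM in PF_LPS (log2 fold change -0.84 ± 0.18, adjusted p = 0.112). PF_LPS library 2 was highest, and the other PF_LPS libraries still lay above all of EtOH_LPS. Tgtp1 had 182, 187 and 261 FPKM in EtOH_LPS, against 328, 531 and 569 FPKM in PF_LPS (log2 fold change -1.15 ± 0.32, adjusted p = 0.187). Under saline Tgtp1 was also lower with ethanol without overlap (log2 fold change -0.88 ± 0.32). Its close copy Tgtp2, with which it may share fragments, gave -0.80 ± 0.25 (adjusted p = 0.257), and the windows of both hold the interferon letters, while the groups of Iigp1 overlapped (log2 fold change -0.86 ± 0.31, adjusted p = 0.346).

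Genes of MHC class I and the immunoproteasome had a median of -0.03 (0.22 with equal totals), 1 gene of 17 without overlap above, 2 below, and 1 lower at an unadjusted p under 0.05. The 2 below were the light chain B2m, at 799.9, 836 and 816 FPKM in EtOH_LPS, against 869, 1423 and 1330 FPKM in PF_LPS (adjusted p = 0.476), and the transactivator Nlrc5, at 20.2, 15.6 and 19.6 FPKM in EtOH_LPS, against 23.9, 29.5 and 29.3 FPKM in PF_LPS (adjusted p = 0.259).

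Markers of neutrophils and inflammatory monocytes had mostly negative log2 fold changes, and the summed levels of leukocyte markers overlapped between the groups. Of 15 genes that mark neutrophils and inflammatory monocytes, 13 had a negative log2 fold change, with a median of -0.32 (-0.15 with equal totals), and 4 were lower at an unadjusted p under 0.05. Groups did not overlap for 3 of them, but Itgam and Ccr2 were under 1 FPKM in every EtOH_LPS library and entered the set through PF_LPS, where they were high, so they had to differ. The summed FPKM of the full list of 21 ranged over 274.0 to 478 in EtOH_LPS and 313 to 691 in PF_LPS, and no marker was at 0 in all 6 libraries. Ly6c2, a marker of inflammatory monocytes, had 1.26, 0.731 and 1.66 FPKM in EtOH_LPS, against 2.35, 2.32 and 6.11 FPKM in PF_LPS (adjusted p = 0.206). The integrin chain Itgam had 0.294, 0.513 and 0.733 FPKM in EtOH_LPS, against 1.06, 1.32 and 1.31 FPKM in PF_LPS (adjusted p = 0.206), and the monocyte chemokine receptor Ccr2 had 0.808, 0.274 and 0.707 FPKM in EtOH_LPS, against 1.02, 1.54 and 1.54 FPKM in PF_LPS (adjusted p = 0.325). For macrophages and dendritic cells the summed FPKM of 20 markers was 105 to 156 in EtOH_LPS and 93.7 to 205 in PF_LPS, with 5 positive and 8 negative log2 fold changes among 13 genes and a median of -0.06 (0.05 with equal totals). Lyz2, a lysozyme of myeloid cells, overlapped between groups, at 9.9, 6.39 and 13.9 FPKM in EtOH_LPS, against 19, 12.6 and 43.5 FPKM in PF_LPS (adjusted p = 0.314). Fewer cells of a type and less RNA per cell cannot be told apart in whole tissue, and the part of leukocytes in the levels of the interferon genes was not tested.

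Other inflammatory mediators split in direction. Il6, the inducer of the acute-phase response, had 122, 107 and 87.5 FPKM in EtOH_LPS, against 50, 80 and 58.8 FPKM in PF_LPS (log2 fold change 0.75 ± 0.19, adjusted p = 0.168). Ccl2, which draws monocytes, had 177, 177 and 198 FPKM in EtOH_LPS, against 126, 110.1 and 125 FPKM in PF_LPS (log2 fold change 0.61 ± 0.15, adjusted p = 0.154). All EtOH_LPS libraries lay above all PF_LPS libraries for both, without passing the threshold. Cxcl10, the interferon-inducible chemokine of T cells, overlapped fully, at 1985, 1567 and 1855 FPKM in EtOH_LPS, against 1488, 1954 and 1856 FPKM in PF_LPS (log2 fold change 0.03 ± 0.26). Tnf was low in both groups, at 1.48, 1.14 and 1.76 FPKM in EtOH_LPS, against 1.25, 0.956 and 1.8 FPKM in PF_LPS (log2 fold change 0.08 ± 0.17). The signs of Cxcl10 and Tnf turned with single libraries left out.

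A further set of mediators lay below PF_LPS. Il1rn, the antagonist of the interleukin-1 receptor, had 12.8, 17.6 and 20.4 FPKM in EtOH_LPS, against 25.1, 29.8 and 36.5 FPKM in PF_LPS (log2 fold change -0.82 ± 0.19, adjusted p = 0.127). Nos2, the inducible nitric oxide synthase, had 1.64, 3.9 and 3.71 FPKM in EtOH_LPS, against 10.1, 4.88 and 9.17 FPKM in PF_LPS (log2 fold change -1.15 ± 0.27, adjusted p = 0.133). Ccl28, a chemokine of epithelia, had 26.2, 9.72 and 17.4 FPKM in EtOH_LPS, against 33.8, 104 and 59 FPKM in PF_LPS (log2 fold change -1.78 ± 0.38, adjusted p = 0.113), with PF_LPS library 2 far the highest. In each of these the groups did not overlap. Ccl28 was also lower with ethanol without overlap under saline, with 4.57, 4.48 and 4.66 FPKM in EtOH, against 10.1, 7.92 and 11.8 FPKM in PF (log2 fold change -0.96 ± 0.38). Il1rn and Nos2 overlapped under saline. The LPS receptor Tlr4 lay higher, at 10.3, 8.77 and 6.87 FPKM in EtOH_LPS, against 6.19, 5.81 and 5.93 FPKM in PF_LPS (adjusted p = 0.45), and the LPS-binding protein Lbp lower, at 1.01, 0.823 and 2.35 FPKM in EtOH_LPS, against 5.48, 3.86 and 3.57 FPKM in PF_LPS (adjusted p = 0.161).

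Feedback genes of NF-kB and immediate early genes leaned higher in EtOH_LPS. The NF-kB list had a median of 0.30 (0.16 after correction for GC content), with 3 of 23 genes without overlap above and 0 below, and 3 higher at an unadjusted p under 0.05. Nfkbia, the inhibitor that NF-kB induces against itself, had 69.1, 89.7 and 80.8 FPKM in EtOH_LPS, against 54.5, 39.4 and 58.3 FPKM in PF_LPS (log2 fold change 0.66 ± 0.19, adjusted p = 0.222). Birc3, an inhibitor of apoptosis, had 208, 175 and 163 FPKM in EtOH_LPS, against 124, 120.2 and 119 FPKM in PF_LPS (log2 fold change 0.57 ± 0.16, adjusted p = 0.206). The promoter window of Nfkbia holds both the NF-kB and the interferon letters searched above, and that of Birc3 holds neither.

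Immediate early genes, which are transcribed within minutes of a stimulus, had the highest median of the functional lists named here, 0.62 over 24 genes. Groups did not overlap for 9 of them (37.5%) with EtOH_LPS above and for 0 below, and 11 were higher at an unadjusted p under 0.05. Btg2, an antiproliferative early gene, had 59.1, 114 and 113 FPKM in EtOH_LPS, against 41.7, 23.4 and 26.9 FPKM in PF_LPS (log2 fold change 1.59 ± 0.28, adjusted p = 0.0754). Ccn1, a secreted matrix-associated protein, had 15.2, 35.8 and 39.2 FPKM in EtOH_LPS, against 7.44, 5.97 and 8.64 FPKM in PF_LPS (log2 fold change 1.80 ± 0.35, adjusted p = 0.0943), with EtOH_LPS library 1 lowest of its group. The transcription factor Egr1 had 9.21, 11.4 and 19.5 FPKM in EtOH_LPS, against 5.37, 3.68 and 3.46 FPKM in PF_LPS (log2 fold change 1.43 ± 0.33, adjusted p = 0.127). Fos, a subunit of AP-1, had 21.5, 13.7 and 13.5 FPKM in EtOH_LPS, against 7.95, 4.6 and 5.86 FPKM in PF_LPS (log2 fold change 1.26 ± 0.28, adjusted p = 0.12). Under saline the list's median was 0.12. Each of these early genes lay higher in all 3 EtOH_LPS libraries than in any PF_LPS library.

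Endothelial adhesion and coagulation genes leaned higher in EtOH_LPS, and whole tissue does not show which cells made their transcripts. In the endothelial adhesion list all 10 genes had a positive log2 fold change, 5 of them (50%) without overlap, with a median of 0.46 and 5 at an unadjusted p under 0.05. Sele, the E-selectin that activated endothelium makes, had 20, 8.9 and 8.88 FPKM in EtOH_LPS, against 4.85, 4.83 and 5.03 FPKM in PF_LPS (log2 fold change 1.11 ± 0.26, adjusted p = 0.127). Icam1, the ligand of leukocyte integrins, had 129, 176 and 167 FPKM in EtOH_LPS, against 103, 57.4 and 85.7 FPKM in PF_LPS (log2 fold change 0.96 ± 0.26, adjusted p = 0.181). The promoter window of Sele holds the interferon letters and that of Icam1 neither motif. Endothelial marker genes lay higher beside them, as all 15 had positive log2 fold changes with a median of 0.30. One of them, Tie1, reached 1 FPKM in EtOH_LPS alone and so had to differ. Their summed FPKM, over 19 markers of which none was at 0 throughout, was 78.3 to 112 in EtOH_LPS and 59.5 to 91.4 in PF_LPS. Their part in the result was not tested.

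The coagulation and fibrinolysis list had a median of 0.44, with 4 of 16 genes without overlap above, 0 below, and 4 higher at an unadjusted p under 0.05. Thbs1, or thrombospondin 1, had 28.7, 28.5 and 27.9 FPKM in EtOH_LPS, against 13.5, 15.8 and 15.7 FPKM in PF_LPS (log2 fold change 0.88 ± 0.16, adjusted p = 0.0793). F2r, the thrombin receptor, had 26.5, 19.4 and 18.4 FPKM in EtOH_LPS, against 9.42, 11.1 and 10.3 FPKM in PF_LPS (log2 fold change 0.98 ± 0.25, adjusted p = 0.157). Plau, the urokinase that activates plasminogen, had 192, 369 and 148 FPKM in EtOH_LPS, against 116, 55.2 and 80.4 FPKM in PF_LPS (log2 fold change 1.43 ± 0.35, adjusted p = 0.141). Under saline the order was the opposite, with 136, 113 and 135 FPKM in EtOH, against 193, 267 and 169 FPKM in PF (log2 fold change -0.68 ± 0.35, adjusted p = 1). Pmaip1, the cell-death protein Noxa, had 8.69, 31.9 and 18.5 FPKM in EtOH_LPS, against 7.35, 7.43 and 6.96 FPKM in PF_LPS (log2 fold change 1.16 ± 0.33, adjusted p = 0.207).

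**Figure D3:**
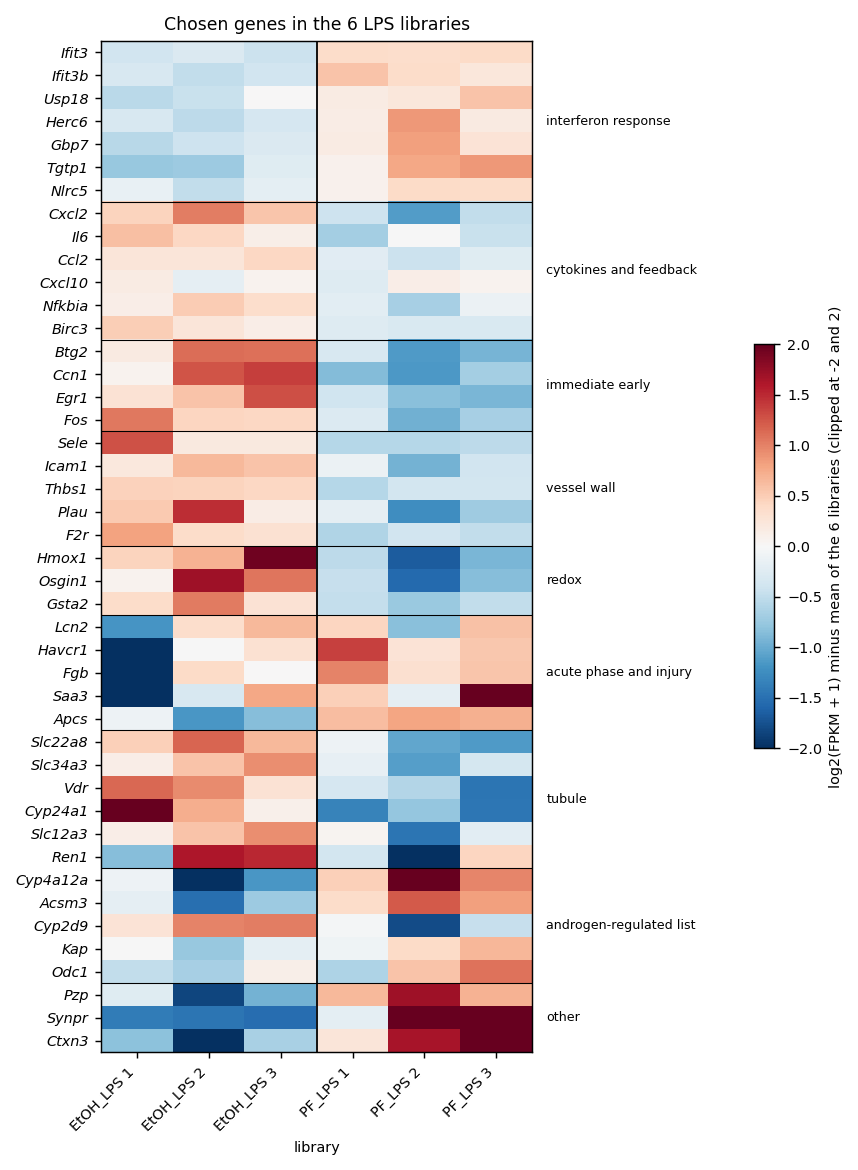
Log2(FPKM + 1) minus the mean of the 6 LPS libraries, for genes named in the text (rows, in groups) in the 3 EtOH_LPS libraries (left of the line) and the 3 PF_LPS libraries (right), clipped at 2 log2 units on either side. The interferon genes are mostly blue or near white in EtOH_LPS and mostly red in PF_LPS, where library 1 lies near the mean for some, such as Tgtp1. The early genes, the adhesion and coagulation genes (labelled vessel wall) and the redox genes go the other way. EtOH_LPS library 1 is low for Lcn2, Havcr1, Fgb and Saa3, with the other EtOH_LPS libraries above it. The labels name themes and not the cells that made the transcripts.

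Genes that respond to oxidative stress leaned higher in EtOH_LPS. Among 37 genes of the NRF2 list, 8 (21.6%) had EtOH_LPS above without overlap and 0 had it below. The median was 0.28, with 27 positive and 10 negative log2 fold changes, and 10 were higher at an unadjusted p under 0.05. The summed FPKM of the list overlapped, at 13720 to 19150 in EtOH_LPS and 10640 to 15780 in PF_LPS. Hmox1, the heme oxygenase that degrades heme to biliverdin, iron and carbon monoxide, had 105, 125 and 299 FPKM in EtOH_LPS, against 52.9, 23.7 and 40.5 FPKM in PF_LPS. EtOH_LPS library 3 was highest, and all 3 lay well above the highest PF_LPS library. The log2 fold change reached 2.06 ± 0.36 (adjusted p = 0.0754). Saline libraries held 6.08, 6.17 and 6.56 FPKM in EtOH, against 5.77, 7.6 and 7.65 FPKM in PF. Osgin1, an oxidative-stress-induced growth inhibitor, had 3.51, 12.9 and 8.03 FPKM in EtOH_LPS, against 2.12, 0.456 and 1.38 FPKM in PF_LPS (log2 fold change 1.90 ± 0.39, adjusted p = 0.0959), and its ethanol libraries were also above under saline (log2 fold change 1.21 ± 0.39, adjusted p = 1). Gsta2, a glutathione transferase, had 291, 465 and 276 FPKM in EtOH_LPS, against 162, 135 and 159 FPKM in PF_LPS (log2 fold change 1.14 ± 0.26, adjusted p = 0.127). Ugt1a2, a glucuronosyltransferase, was named for its fold change and not through this list. It gave 1.96 ± 0.51 (adjusted p = 0.179), but it shares exons with the other Ugt1a genes, so its value is uncertain.

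Several acute-phase and tubular injury genes varied widely between the libraries of a group. The acute-phase list had a median of -0.51 (-0.26 with equal totals), with 2 of 13 genes without overlap below, 0 above, and 2 lower at an unadjusted p under 0.05. Without EtOH_LPS library 1 and PF_LPS library 2 the median was -0.17. Fgb, the fibrinogen beta chain, had 9.71, 66.2 and 50.6 FPKM in EtOH_LPS, against 101, 63.4 and 74.7 FPKM in PF_LPS (adjusted p = 0.44). Saa3, a serum amyloid A made in inflamed tissue, had 7.02, 43.1 and 93.6 FPKM in EtOH_LPS, against 75.8, 47.4 and 223 FPKM in PF_LPS (adjusted p = 0.523), and Hp, the hemoglobin-binding haptoglobin, had 0.519, 4.76 and 6.35 FPKM in EtOH_LPS, against 7.9, 2.96 and 14.1 FPKM in PF_LPS (adjusted p = 0.544). EtOH_LPS library 1 was the lowest of its group in all 3. Apcs, the serum amyloid P component, was low in all 3 ethanol libraries, at 1.23, 0.0736 and 0.337 FPKM in EtOH_LPS, against 2.69, 3.13 and 2.91 FPKM in PF_LPS (log2 fold change -1.41 ± 0.24, adjusted p = 0.0726).

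Lcn2, which encodes the injury marker NGAL, did not separate the diets, at 68.8, 201 and 247 FPKM in EtOH_LPS, against 212, 88.1 and 236 FPKM in PF_LPS (log2 fold change -0.12 ± 0.46, adjusted p = 0.949), and its sign turned under 5 alternatives. Havcr1, or KIM-1, which injured proximal tubule cells display, had 3.46, 23.3 and 29.1 FPKM in EtOH_LPS, against 61.9, 28.6 and 34.6 FPKM in PF_LPS (log2 fold change -1.45 ± 0.60, adjusted p = 0.426). Groups overlapped by the lowest PF_LPS library alone. Spp1, or osteopontin, had 2885, 4590 and 4321 FPKM in EtOH_LPS, against 3174, 2568 and 3168 FPKM in PF_LPS (adjusted p = 0.578), and Krt20, a keratin of injured tubules, had 0.206, 17.6 and 7.59 FPKM in EtOH_LPS, against 3.96, 0.978 and 2.19 FPKM in PF_LPS (adjusted p = 0.732). The list of tubular injury and repair had a median of -0.08 (0.15 with equal totals) over 21 genes, of which 3 lay above without overlap and 0 below.

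Transporters and enzymes of the tubule leaned higher in EtOH_LPS. Of 41 proximal tubule transporters, 13 (31.7%) had EtOH_LPS above without overlap, 0 had it below, and 13 were higher and 1 lower at an unadjusted p under 0.05. The median was 0.37, and 0.34 after correction for GC content. Slc22a8, the organic anion transporter OAT3, had 82.8, 134 and 93.3 FPKM in EtOH_LPS, against 55.3, 28.3 and 26.5 FPKM in PF_LPS (log2 fold change 1.52 ± 0.29, adjusted p = 0.0934). Its saline values, 97.9, 77.2 and 90.9 FPKM in EtOH, against 55.4, 67.9 and 86.5 FPKM in PF, overlapped between diets. All 3 PF_LPS libraries lay below all of them, though library 1, at 55.34 FPKM, was barely below PF library 1, at 55.42 FPKM. Slc34a3, the phosphate carrier NaPi-IIc, had 20, 27.3 and 35.4 FPKM in EtOH_LPS, against 16.1, 7.93 and 13.9 FPKM in PF_LPS (log2 fold change 1.08 ± 0.29, adjusted p = 0.18). The amino acid exchanger Slc7a8 averaged 14.3 ± 3.27 FPKM in EtOH_LPS and 6.55 ± 2.77 FPKM in PF_LPS, and the dicarboxylate carrier Slc13a3 averaged 149.9 ± 43.2 FPKM in EtOH_LPS and 76 ± 23.9 FPKM in PF_LPS (SD, n = 3 each; adjusted p = 0.181 and 0.205).

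In the vitamin D list, 5 of 19 genes lay above without overlap and 0 below, and the median was 0.39. Log2 fold changes were positive for 15 and negative for 4, and 8 were higher and 1 lower at an unadjusted p under 0.05. Vdr, the vitamin D receptor, had 67.6, 58.4 and 37 FPKM in EtOH_LPS, against 23.6, 19.5 and 10.2 FPKM in PF_LPS (log2 fold change 1.59 ± 0.31, adjusted p = 0.0937). Its saline levels were 42.4, 30.4 and 42.4 FPKM in EtOH, against 30.9, 43.2 and 38.7 FPKM in PF. Cyp24a1, its target that inactivates vitamin D hormones, had 35.4, 8.07 and 4.87 FPKM in EtOH_LPS, against 1.17, 2.2 and 1.01 FPKM in PF_LPS (log2 fold change 2.37 ± 0.64, adjusted p = 0.197). EtOH_LPS library 1 stood far above the rest, while saline libraries held 18.8, 11.4 and 47.3 FPKM in EtOH, against 41.2, 54.2 and 47.5 FPKM in PF. Gc, the vitamin D-binding protein, was named for its fold change and not through this list. It had 40.1, 98.8 and 40.7 FPKM in EtOH_LPS, against 14.9, 15.3 and 19.3 FPKM in PF_LPS (log2 fold change 1.68 ± 0.31, adjusted p = 0.0793). Gc was above under saline as well, with 24.3, 24.9 and 37.9 FPKM in EtOH, against 11.8, 11.9 and 12.5 FPKM in PF (adjusted p = 0.712). Cyp27a1, a mitochondrial sterol hydroxylase that also acts on vitamin D, averaged 23.2 ± 2.74 FPKM in EtOH_LPS and 11.5 ± 2.93 FPKM in PF_LPS (SD, n = 3 each; adjusted p = 0.0944).

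Most markers of the distal nephron lay higher too, and the medians of their lists were also positive between the diets under saline. Those saline medians were 0.245 for intercalated cells, 0.309 for principal cells and 0.351 for thick ascending limb and distal tubule, against -0.008 over all genes. For intercalated cells, 6 of 12 genes lay above without overlap, the median was 0.46, and 13 markers summed to 338 to 379 FPKM in EtOH_LPS against 240.4 to 272 FPKM in PF_LPS. The 12 principal cell markers summed to 94.7 to 119 FPKM in EtOH_LPS and 48.6 to 86.5 FPKM in PF_LPS. Over the 10 of them that were tested, the median log2 fold change was 0.58 (0.46 after correction for GC content). Of these, 3 lay above without overlap, 0 below, and 4 were higher at an unadjusted p under 0.05. For thick ascending limb and distal tubule, 4 of 14 genes lay above without overlap and 0 below, at a median of 0.39. At an unadjusted p under 0.05, 6 were higher and 1 lower, Cldn10 (log2 fold change -0.73 ± 0.30, adjusted p = 0.412). The sums of these 14 markers overlapped, at 1570 to 1763 FPKM in EtOH_LPS and 1449 to 1676 FPKM in PF_LPS. Slc4a1, the anion exchanger AE1, had 2.62, 3.07 and 3.25 FPKM in EtOH_LPS, against 1, 0.518 and 0.699 FPKM in PF_LPS (log2 fold change 1.20 ± 0.27, adjusted p = 0.119). Scnn1a, the alpha subunit of the epithelial sodium channel, had 7.74, 6.31 and 9.95 FPKM in EtOH_LPS, against 4.6, 3.6 and 3.37 FPKM in PF_LPS (adjusted p = 0.159), and the thiazide-sensitive cotransporter Slc12a3 had 51.6, 70 and 90.1 FPKM in EtOH_LPS, against 48.9, 16.4 and 40.6 FPKM in PF_LPS (adjusted p = 0.332). Scnn1a lay above without overlap under saline as well (log2 fold change 0.78 ± 0.22, adjusted p = 0.948). Proximal tubule markers, led by Kap, summed to 50220 to 75710 FPKM in EtOH_LPS and to 71460 to 115200 FPKM in PF_LPS, though 12 of the list's 16 genes had positive log2 fold changes, at a median of 0.29 (0.19 after correction for GC content). Medulla markers summed to 645 to 1041 FPKM in EtOH_LPS and 736 to 1039 FPKM in PF_LPS. Sums for podocytes, 139 to 160.0 FPKM in EtOH_LPS and 124 to 175 FPKM in PF_LPS, overlapped, as did those for adipose tissue (38.8 to 62.0 FPKM in EtOH_LPS and 32.3 to 68.3 FPKM in PF_LPS) and adrenal (2.37 to 3.35 FPKM in EtOH_LPS and 1.69 to 3.14 FPKM in PF_LPS), where Cyp11b2 was at 0 in all 6. The part of segment composition in the results was not tested.

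Ren1, renin of the juxtaglomerular cells, had 22.9, 132 and 121 FPKM in EtOH_LPS, against 32.3, 7.49 and 57.2 FPKM in PF_LPS (log2 fold change 1.52 ± 0.86, adjusted p = 0.556), with EtOH_LPS library 1 and PF_LPS library 2 each lowest of its group. Pck1, the rate-limiting enzyme of gluconeogenesis, had 1340, 1993 and 1728 FPKM in EtOH_LPS, against 1048, 911 and 735 FPKM in PF_LPS (log2 fold change 0.90 ± 0.27, adjusted p = 0.243). In the gluconeogenesis list 20 of 22 genes were positive, 4 without overlap, with a median of 0.32 and 2 higher at an unadjusted p under 0.05.

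Androgen-regulated kidney genes had a median of -0.64 over 17 genes (-0.38 with equal totals and -0.30 with quantile normalization), and -0.51 between the diets under saline. Groups did not overlap for 4 with EtOH_LPS below (23.5%) and 1 above, and at an unadjusted p under 0.05 5 were lower and 2 higher. Cyp4a12a, the male-biased omega-hydroxylase of arachidonic acid, had 13.8, 2.4 and 6.09 FPKM in EtOH_LPS, against 21.2, 64.8 and 30.2 FPKM in PF_LPS (log2 fold change -2.33 ± 0.51, adjusted p = 0.119), and its near-identical copy Cyp4a12b makes the split uncertain. Under saline it had 7.73, 7.58 and 6.66 FPKM in EtOH, against 50.6, 24.6 and 37.6 FPKM in PF (log2 fold change -2.16 ± 0.51, adjusted p = 0.525). Acsm3, a medium-chain acyl-CoA synthetase, had 1003, 400.3 and 683 FPKM in EtOH_LPS, against 1460, 2656 and 2001 FPKM in PF_LPS (log2 fold change -1.61 ± 0.37, adjusted p = 0.127). Eri2, an exonuclease gene on the opposite strand that overlaps Acsm3, lay lower too (-1.73 ± 0.37, adjusted p = 0.107), and the fragments of both cannot be told apart without the strand setting. B2m, Cxcl10, Cyp24a1, Dnaja1 and Ccne2 also overlap protein-coding genes on the opposite strand. Tgtp1 and Tgtp2 overlap Olfr56 in the same way, and Ugt1a2 overlaps Dnajb3.

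Kap, the androgen-induced protein of the proximal tubule and one of the most abundant mRNAs, had 66564, 39343 and 58081 FPKM in EtOH_LPS, against 62442, 86972 and 105635 FPKM in PF_LPS (log2 fold change -0.64 ± 0.31, adjusted p = 0.487), with overlap. Odc1, the ornithine decarboxylase of polyamine synthesis, overlapped too, at 246, 218 and 374 FPKM in EtOH_LPS, against 226, 513 and 735 FPKM in PF_LPS (adjusted p = 0.519). Cyp2d9 lay the other way, at 46, 76.5 and 78.2 FPKM in EtOH_LPS, against 36.7, 10.3 and 27.3 FPKM in PF_LPS (log2 fold change 1.53 ± 0.37, adjusted p = 0.145), as did the prolactin receptor Prlr with overlap (1.48 ± 0.59, adjusted p = 0.408). The Cyp2 and Cyp4 list as a whole split, with 3 of 19 genes without overlap above and 6 below, among them the called Cyp2a5 (median -0.11, and 0.12 with equal totals).

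The 4 largest negative log2 fold changes belonged to Cyp4a12a and to Synpr, Ctxn3 and Pzp, which were low with ethanol in both LPS states. Synpr, or synaptoporin, had 0.141, 0.0967 and 0.0443 FPKM in EtOH_LPS, against 1.63, 16.2 and 11.5 FPKM in PF_LPS (log2 fold change -2.92 ± 0.52, adjusted p = 0.0793), and 0.0725, 0.0268 and 0 FPKM in EtOH, against 3.63, 3.64 and 4.34 FPKM in PF under saline. All 6 ethanol libraries lay under 0.2 FPKM, so Synpr, like Rnf180, was among the 10961 genes only through PF_LPS. Ctxn3, or cortexin 3, had 3.92, 0.446 and 4.53 FPKM in EtOH_LPS, against 9.18, 26.1 and 37.7 FPKM in PF_LPS (log2 fold change -2.69 ± 0.53, adjusted p = 0.0959). Pzp, a broad protease inhibitor of the alpha-2-macroglobulin family, had 42.2, 13.3 and 25.4 FPKM in EtOH_LPS, against 79, 165 and 82.2 FPKM in PF_LPS (log2 fold change -2.03 ± 0.39, adjusted p = 0.0934), and 34.6, 20.8 and 25.7 FPKM in EtOH, against 111, 80.8 and 101 FPKM in PF under saline. Akr1c18, which inactivates progesterone, was low under LPS, at 0.942, 3.72 and 1.29 FPKM in EtOH_LPS, against 14.5, 5.44 and 9.64 FPKM in PF_LPS (log2 fold change -1.89 ± 0.50, adjusted p = 0.18), and overlapped under saline.

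Lipid lists had positive medians under LPS, with few genes whose groups did not overlap. In lipid storage 19 of 24 genes were positive, 3 lay above without overlap and 1 below, at a median of 0.41 (0.29 after correction for GC content), and 2 were higher and 2 lower at an unadjusted p under 0.05. Among PPAR targets and genes of fatty acid oxidation 28 of 36 were positive, 2 lay above without overlap and 1 below, at a median of 0.20, against -0.26 under saline. Lpl, the lipoprotein lipase that frees fatty acids from triglyceride, lay the other way, with 76.8, 70.7 and 156 FPKM in EtOH_LPS, against 183, 430.1 and 205 FPKM in PF_LPS (log2 fold change -1.41 ± 0.35, adjusted p = 0.156), and 83.9, 87.2 and 71.1 FPKM in EtOH, against 304, 317 and 227 FPKM in PF under saline (log2 fold change -1.79 ± 0.35, adjusted p = 0.289). Its inhibitor Angptl4 had 23.3, 129.5 and 105 FPKM in EtOH_LPS, against 46.8, 17.8 and 53.6 FPKM in PF_LPS (log2 fold change 0.92 ± 0.58, adjusted p = 0.594), but lay below under saline without overlap, with 4.82, 5.76 and 6.07 FPKM in EtOH, against 16.6, 20.5 and 12.8 FPKM in PF (adjusted p = 1). The lipid droplet protein Plin2 overlapped, at 47.6, 242 and 389 FPKM in EtOH_LPS, against 132, 48.5 and 129.9 FPKM in PF_LPS (adjusted p = 0.691). Scd1, the fatty acid desaturase, averaged 21.6 ± 5.22 FPKM in EtOH_LPS and 10 ± 5.01 FPKM in PF_LPS (SD, n = 3 each; adjusted p = 0.507). In the list of cholesterol synthesis and efflux, 4 of 22 genes lay below without overlap and 0 above, at a median of 0.06. Idi1, an isomerase of isoprenoid synthesis, had 51, 25.2 and 23.2 FPKM in EtOH_LPS, against 53.7, 116 and 78.1 FPKM in PF_LPS (adjusted p = 0.172), and Sqle, the squalene epoxidase, had 30.4, 24.1 and 17.8 FPKM in EtOH_LPS, against 46.2, 59.7 and 35.9 FPKM in PF_LPS (adjusted p = 0.137).

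Genes of ethanol and acetate metabolism went both ways, with 2 of 15 above without overlap, 3 below and a median of 0.26 (0.53 with equal totals). The enzymes that oxidise ethanol itself, Adh1 and Cyp2e1, had lower values with ethanol. Adh1, the alcohol dehydrogenase, had 254, 234 and 308 FPKM in EtOH_LPS, against 320.4, 405 and 399 FPKM in PF_LPS (log2 fold change -0.50 ± 0.18, adjusted p = 0.352), and 172, 177 and 149 FPKM in EtOH, against 252, 254 and 301 FPKM in PF under saline. Cyp2e1, the ethanol-oxidising P450 that ethanol induces in liver, had 1203, 1030 and 1233 FPKM in EtOH_LPS, against 1414, 1774 and 1424 FPKM in PF_LPS (log2 fold change -0.41 ± 0.22, adjusted p = 0.517), and 667, 529 and 797 FPKM in EtOH, against 991, 1036 and 1263 FPKM in PF under saline. In both genes the ethanol libraries lay below the pair-fed ones without overlap in both LPS states, and neither passed the threshold. Aldh2, the aldehyde dehydrogenase of acetaldehyde, overlapped at 73.8, 168 and 151 FPKM in EtOH_LPS, against 134, 45.6 and 98.3 FPKM in PF_LPS (adjusted p = 0.655), and Acss1, which activates acetate in mitochondria, lay above at 57.8, 80.5 and 105 FPKM in EtOH_LPS, against 54.7, 25.2 and 37.2 FPKM in PF_LPS (adjusted p = 0.243).

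Chaperones leaned lower in EtOH_LPS, with a median of -0.31 (-0.04 with equal totals) and 5 of 19 genes (26.3%) without overlap below, 0 above, and 5 lower at an unadjusted p under 0.05. One of the 5 below, Hspa1a, reached 1 FPKM in PF_LPS alone. Hspa1b, an inducible HSP70 with the near-identical copy Hspa1a, had 2.69, 1.35 and 2.03 FPKM in EtOH_LPS, against 8.42, 3.89 and 4.56 FPKM in PF_LPS (log2 fold change -1.10 ± 0.25, adjusted p = 0.127). Dnaja1, an HSP40 co-chaperone, had 109, 120.1 and 75.4 FPKM in EtOH_LPS, against 197, 185 and 149 FPKM in PF_LPS (log2 fold change -0.81 ± 0.23, adjusted p = 0.197). Stress genes of protein folding and translation split, with 17 positive and 14 negative, 1 above without overlap, 3 below and a median of 0.03. Phgdh, the first enzyme of serine synthesis, averaged 3.37 ± 1.49 FPKM in EtOH_LPS and 1.45 ± 1.27 FPKM in PF_LPS (SD, n = 3 each; log2 fold change 0.94 ± 0.40, adjusted p = 0.438). Dnajb9 of the endoplasmic reticulum averaged 66 ± 13.2 FPKM in EtOH_LPS and 108 ± 23.2 FPKM in PF_LPS and the glutathione-degrading Chac1 averaged 1.05 ± 0.906 FPKM in EtOH_LPS and 3.08 ± 1.45 FPKM in PF_LPS (SD, n = 3 each; adjusted p = 0.345 and 0.205).

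Cell cycle genes split, with 4 of 20 without overlap above, 5 below and a median of -0.10 (0.15 with equal totals). One of those below, Ccnb2, reached 1 FPKM in PF_LPS alone. Cdk1, Top2a and Ccne2 also lay below without overlap, while none of the 4 above is named here. Log2 fold changes of the list ran from -1.35 to 0.59, and 4 were higher and 6 lower at an unadjusted p under 0.05. Under saline Cdk1 and Top2a were also lower with ethanol without overlap (log2 fold changes -0.90 ± 0.28 and -0.67 ± 0.21), and Ccne2 overlapped. Cdk1, the mitotic kinase, had 1.56, 0.344 and 1.07 FPKM in EtOH_LPS, against 2.25, 4.98 and 5.09 FPKM in PF_LPS (log2 fold change -1.35 ± 0.28, adjusted p = 0.0959). Top2a, the topoisomerase of dividing cells, averaged 1.21 ± 0.548 FPKM in EtOH_LPS and 3.27 ± 0.772 FPKM in PF_LPS, and cyclin E2, Ccne2, averaged 0.8 ± 0.491 FPKM in EtOH_LPS and 3.22 ± 0.972 FPKM in PF_LPS (SD, n = 3 each; adjusted p = 0.109 and 0.107).

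The TLR4 signalling list had a median of -0.03, with 2 of 18 genes above without overlap and 3 below, and the interleukin-1 and TNF families -0.15, with 0 of 15 above and 2 below (medians 0.21 and 0.05 with equal totals). Complement genes had a median of 0.04, with 0 of 15 above and 2 below, 1 of which, C4b, reached 1 FPKM in PF_LPS alone. Subunits of the respiratory chain had a median of 0.06, with 1 of 32 above and 0 below. Higher medians were those of the circadian clock, 0.29 with 3 of 19 above and 0 below, and of matrix and fibrosis genes, 0.24 with 3 of 24 above and 0 below. In each of these lists limma called none.

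**Figure D4:**
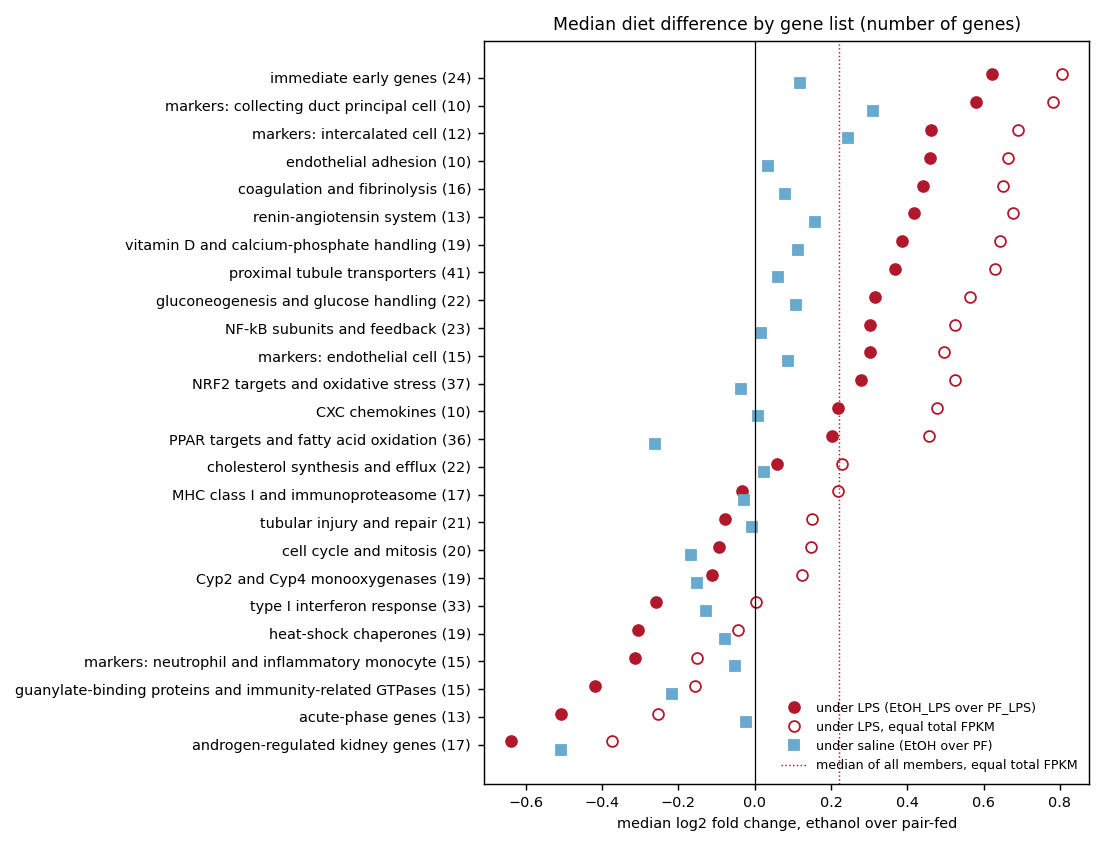
Median log2 fold change of ethanol over pair-fed (x axis) for 25 gene lists (y axis, number of genes in brackets), under LPS (filled circles), under LPS with equal totals (open circles) and under saline (squares), with the median of all genes at equal totals as a dotted line. Immediate early genes, collecting duct markers and endothelial adhesion stand at the high end under LPS, and androgen-regulated, acute-phase and GTPase genes at the low end, and most medians lie nearer to 0 under saline, where the androgen-regulated genes are again lowest.

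Whether the diet difference under LPS differed from that under saline was tested as an interaction, in which limma called 0 of the 10961 genes, with 452 (4.12%) at an unadjusted p under 0.05. Nothing above is therefore shown to be particular to LPS. Under saline limma called 0 genes higher and 1 lower, Slc6a15, while 366 (3.34%) had an unadjusted p under 0.05. Across the genes the 2 diet fold changes, which share no library, had a Pearson correlation of 0.27 and a Spearman correlation of 0.18. The interaction was -0.85 ± 0.25 for Parp11 and -0.90 ± 0.24 for Trim14. For Cxcl2 it was 1.24 ± 0.30 and for Rnd3 1.30 ± 0.29 (adjusted p between 0.841 and 0.86 for these 4). Hsd11b1 and Limch1 gave -0.96 ± 0.41 and 0.63 ± 0.20 (adjusted p = 0.988 for both). It was nearer to 0 for Cyp2a5, -0.25 ± 0.32, for Slc6a15, 0.16 ± 0.29, and for Rnf180, -0.07 ± 0.26 (adjusted p between 0.988 and 0.99).

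**Figure D5:**
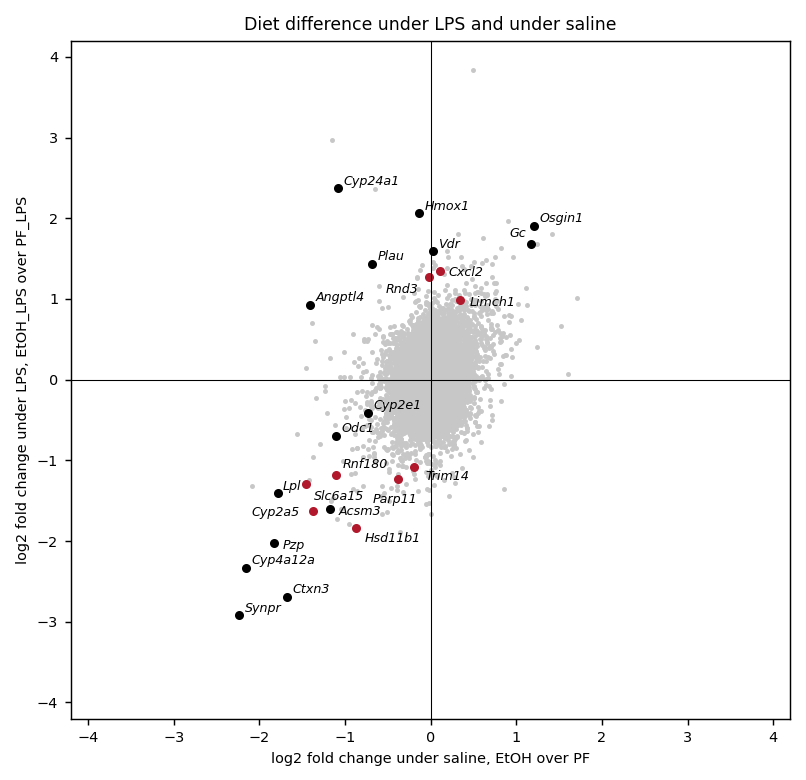
Log2 fold change of ethanol over pair-fed under LPS (y axis) against that under saline (x axis), 1 point per gene for 10961 genes, with 9 called genes in red and other named genes in black. Slc6a15, Rnf180, Cyp2a5, Lpl, Pzp, Cyp4a12a and Synpr lie low on both axes, Cxcl2, Rnd3, Hmox1 and Vdr lie high on the y axis and near 0 on the x axis, and Plau, Angptl4 and Cyp24a1 lie high under LPS and low under saline.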

How the data were processed

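RNA-seq of kidney cortex gave 12 libraries in 4 groups of 3, taken from the labels. Per the labels' protocols, RNA came from the mirVana kit, and a stranded kit was used after removal of ribosomal RNA. The authors deposited 1 table of FPKM. Per the submitters' processing notes these were made on build mm10 with tools that include Cuffnorm, Cuffdiff 2.1.1, Cufflinks 2.2.1, TopHat2 2.0.4 and FastQC 0.10.1 (annotation release and strand setting not given in the sources used here). FPKM are not counts, so no count model or counting interval was used, and depth is known only relatively. Names, biotypes and GC content came from GENCODE M21, which matched 47305 of 47719 identifiers. Genes that reached 1 FPKM in 3 or more of 12 libraries were analysed as log2(FPKM + 1) with limma 3.58.1 (R 4.3.3), with 4 group means, an intensity trend and a robust prior, in two-sided tests with a threshold of 0.05. The fit was tested on simulated data. A permutation test of 3 against 3 cannot go below p = 0.1 and was not used. Promoters came from RefSeq tables (GRCm38.p6). Genes and lists were chosen with earlier results of these data known. The rule named up to 12 called genes per direction, the top 12 in each direction by fold change without overlap at a mean of 5 FPKM, up to 4 genes per list and a panel, and the text names a choice of these; 1 called gene is not reported here. Alternatives were other pseudocounts, filters, scalings, variance models, a GC correction, the replicate number as a block and each LPS library left out.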

Additional observations from a re-analysis of the deposited data

Results flagged for a closer look

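Plau, the urokinase gene, was singled out because all 3 ethanol libraries lay above all 3 pair-fed libraries under LPS and below all 3 under saline. The difference between both diet effects was 2.12 log2 units (2.12 ± 0.49), which did not pass in the interaction test (limma adjusted p = 0.847). Among 98 genes looked at in this way, Plau was the 1 with opposite order in both LPS states.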

How the results depend on the processing

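With 3 genes called higher and 7 lower under LPS, the calls moved to 1 and 3 with a pseudocount of 0.1, 7 and 12 with a pseudocount of 5, and 0 and 0 without a filter on low values. A filter at 5 FPKM gave 3 and 4, equal totals 0 and 0, median-ratio factors 1 and 3, the 6 LPS libraries alone 1 and 0, no trend and no robust prior 1 and 3, array weights 0 and 0, and a GC correction 11 and 16. Leaving out 1 library gave 0 to 12 higher and 0 to 24 lower, with none in either direction without EtOH_LPS library 2 or PF_LPS library 3, and 12 and 24 without PF_LPS library 1. Without EtOH_LPS library 1 and PF_LPS library 2 together, an alternative chosen after seeing the data, 11 were higher and 8 lower. Genes without overlap numbered 861 and 235 with equal totals, 806 to 1727 and 909 to 1647 with 1 library left out, and 2158 and 2086 without both libraries; fewer libraries overlap less by construction. Same-numbered EtOH_LPS and PF_LPS libraries deviated from their group means with correlations of -0.206, -0.127 and 0.237. EtOH_LPS library 1 and PF_LPS library 2, both low for GC-rich genes, gave 0.391. These correlations cannot show whether same-numbered libraries were paired, because such deviations also enter them. With the replicate block 0 genes were called in either direction, under saline 0 and in the interaction 0, and likewise 0 with the block and GC correction. The saline calls, 1 in the main setting, were 2 with a pseudocount of 0.1, 0 with a pseudocount of 5, without a filter, with a filter at 5 FPKM and without trend and robust prior, 8 in the saline libraries alone, 174 with array weights (whose fit did not converge), 0 to 2 with 1 LPS library left out and 6 without both. The interaction called 0 in every setting run except 2 without both libraries. With 1 library left out the log2 fold change ranged over -0.086 to 0.13 for Cxcl10 (negative without EtOH_LPS library 1 or PF_LPS library 1), -0.036 to 0.222 for Tnf (negative without EtOH_LPS library 3 or PF_LPS library 2) and -0.566 to 0.439 for Lcn2 (positive without EtOH_LPS library 1, PF_LPS library 1 or PF_LPS library 3). Tnf was -0.045 without both libraries, and Lcn2 was 0.14 with equal totals and 0.015 with array weights. The other 95 of 98 named genes kept their direction in every setting run. The cause of these moves was not tested. Depth is known only relatively, and 3 libraries a group leave calls near the threshold open to each of them.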
